A study of Mus musculus with 31 samples.

Results

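The region described here is a 2.6 Mb stretch of mouse chromosome 1, from 85 to 87.6 Mb in build mm9, known by its working name as the Sp100-Sp110 repeat cluster. Its members are all peaks that overlap it in 26 deposited ChIP-seq peak lists, which came to 10278 of 17061930 peaks. The region was selected on the width and coverage of its Rad21 peaks, which were very wide in CH12F3 cells and not in i3CBEs cells. The Rad21 difference between these cells is therefore given below as a description, and nothing is inferred from it. ChIP-seq isolates the DNA bound by a protein with an antibody, sequences it, and reports stretches of excess reads as peaks.

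The series studied cohesin-mediated loop extrusion in antibody class switching. All cells were AID-deficient and carried the strain label C57BL/6, so that no group here had AID, the deaminase that starts class switching. CH12F3 is a mouse B-lymphoma line. The titles name its cells CH12F3NCdel, and i3CBEs is a derivative of the same line by its source label. Neither name is spelled out, and the number of clones is not given. Another label field calls the Rad21 samples of these cells splenic B cells; source and title were followed. The NIPBL groups were purified splenic B cells without stimulation (3 lists) or after 48 h with anti-CD40 and IL4 (3), and CH12F3 cells without stimulation (2) or after 24 h with anti-CD40, IL4 and TGF-β (2). The Rad21 groups were splenic B cells without (3) and with (3) that 48 h stimulation, CH12F3 cells without (3) and with (4) the 24 h stimulation, and i3CBEs cells with it (3). The labels tie no replicate to an animal or a culture, and each p-value below reflects the spread between libraries, which may be technical. Peak lists carry no counts of reads and no expression, so depth is unknown and the labelled cell types were not checked by markers. List length ranged from 42659 to 1332862 peaks.

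Rad21 is a subunit of cohesin, the ring-shaped complex that folds chromatin into loops and holds sister chromatids together. NIPBL is the protein that loads cohesin on DNA and stimulates its loop extrusion. Sp100, Sp110 and Sp140 encode related nuclear-body proteins induced by interferon, and in the mouse their genes lie on chromosome 1 beside many partial copies.

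The positions of these genes in mm9 were not worked out, so the name of the region was not checked against its coordinates. In RefSeq's GRCm38.p6 annotation, whose order of genes alone was used, 26 genes run from Slc16a14 to Cab39 with Sp110, Sp140 and Sp100 next to each other among them. Of these 26, 12 were protein-coding, 10 were pseudogenes, 3 were long noncoding RNAs and 1 was a miRNA. A promoter sequence was found for 12 of the 26 genes. In 5 of the 12 at least 50% of the 24-base words were shared with the promoter of another gene, against 4.59% of all 32851 promoters in the table. The units differ: Sp110 and Sp100, with 2 promoters each, were scored by the more alike, and the 4.59% counts single promoters. The 4 promoters below show this likeness between neighbours. Each gives the 250 bases before the transcription start from RefSeq GRCm38.p6, 5′ to 3′ in the direction of the gene. Capitals mark the longest run of letters shared within its family. The family of Sp140 and A530032D15Rik includes C130026I21Rik, which is not printed, so these 2 also share letters beside their capitals.
Sp140 (plus strand): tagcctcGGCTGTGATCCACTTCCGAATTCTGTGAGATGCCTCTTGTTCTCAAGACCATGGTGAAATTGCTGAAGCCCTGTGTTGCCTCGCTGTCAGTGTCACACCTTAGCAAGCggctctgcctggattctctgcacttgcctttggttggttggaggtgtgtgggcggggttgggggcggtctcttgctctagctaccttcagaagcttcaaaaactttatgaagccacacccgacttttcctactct
A530032D15Rik (minus strand): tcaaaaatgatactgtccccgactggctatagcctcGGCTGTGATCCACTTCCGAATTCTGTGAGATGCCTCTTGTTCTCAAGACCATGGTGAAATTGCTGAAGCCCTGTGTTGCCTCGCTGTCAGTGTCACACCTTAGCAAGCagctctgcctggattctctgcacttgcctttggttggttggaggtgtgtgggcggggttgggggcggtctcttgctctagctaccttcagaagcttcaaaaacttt
Sp100 (plus strand): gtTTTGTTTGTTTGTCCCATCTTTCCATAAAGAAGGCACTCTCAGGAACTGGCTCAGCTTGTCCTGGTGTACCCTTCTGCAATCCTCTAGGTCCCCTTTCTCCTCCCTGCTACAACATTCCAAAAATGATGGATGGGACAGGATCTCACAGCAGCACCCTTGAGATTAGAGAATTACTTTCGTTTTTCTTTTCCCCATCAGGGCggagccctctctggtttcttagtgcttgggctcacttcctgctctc
Gm7609 (plus strand): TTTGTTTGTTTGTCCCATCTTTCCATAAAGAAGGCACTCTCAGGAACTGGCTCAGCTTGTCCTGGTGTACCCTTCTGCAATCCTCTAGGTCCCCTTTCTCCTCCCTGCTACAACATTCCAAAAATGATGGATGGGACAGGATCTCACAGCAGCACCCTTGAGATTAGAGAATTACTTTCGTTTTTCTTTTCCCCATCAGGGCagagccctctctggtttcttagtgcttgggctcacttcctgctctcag

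Sp140 and the neighbouring gene A530032D15Rik were identical at 220 of 221 aligned bases, or 99.5%. Another neighbour, C130026I21Rik, was identical to A530032D15Rik over 229 aligned bases and to Sp140 at 98.1% of 211. The run shared by these 3 was 108 bases long. Sp100 and Gm7609 were identical at 247 of 248 aligned bases, with a shared run of 202 bases. A read that lies wholly within such a run matches more than 1 place in the genome, and the authors' handling of such reads is not stated in the sources used here.

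Peaks were found at both ends of the region and not between them. Of its 26 windows of 100 kb, 7 held a peak in any list: 4 at the left end, from 85 Mb, and 3 at the right end, up to 87.6 Mb. A stretch of 2.0 Mb, chr1:85343678-87343744, held no peak in any of the 26 lists. It was the longest empty stretch between peaks of chromosome 1, where the next was 0.406 Mb long. Assembly gaps in mm9 were not examined. The occupied windows made up 26.9% of the region, so a coverage given for the whole region is low by construction.

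In the occupied windows the most heavily covered lay at 85200001. All deposited Rad21 peaks of stimulated CH12F3 cells covered 72.2% ± 1.04 (SD, n = 4) of that window, and those of unstimulated CH12F3 cells 73.2% ± 2.01 (SD, n = 3). In i3CBEs cells they covered 19.3% ± 2.48 (SD, n = 3). NIPBL peaks covered between 35.9% and 59.2% of the same window in the 10 NIPBL lists. At the edges of the chosen region, Rad21 of stimulated CH12F3 cells covered 21.9% ± 1.27 of the last window outside on the left and 50.4% ± 1.39 of the first inside (SD, n = 4). On the right it covered 37.4% ± 2.42 of the last window inside and 8.87% ± 3.21 of the first outside (SD, n = 4). The coverage thus dropped at both edges. On the left, raised coverage ran past the chosen edge, and the mean fell to 2.24% only in the next window further out. On the right the next window further out had a mean of 3.64%.

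**Figure D1:**
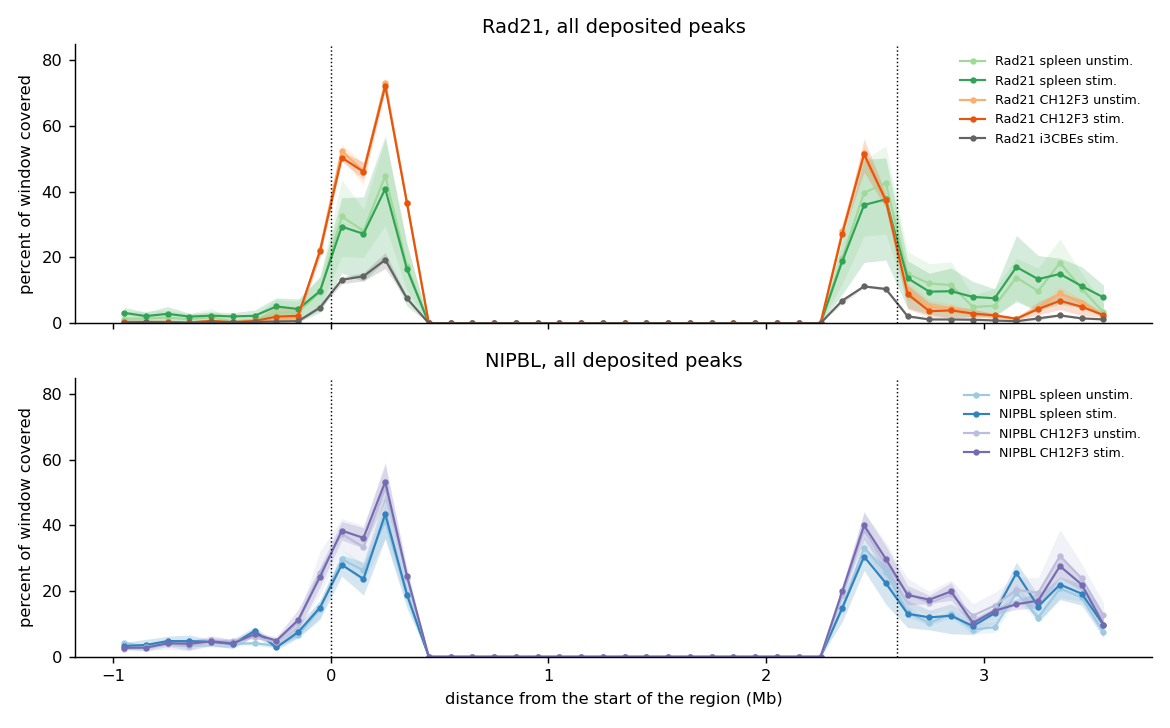
Percent of each 100 kb window covered by all deposited peaks (y axis) against the distance of the window's middle from the start of the region in Mb (x axis), for Rad21 (top) and NIPBL (bottom). Lines are group means, shading runs from the lowest to the highest library, and dotted lines mark the region; both antibodies rose at its 2 ends around a stretch without peaks, and the CH12F3 Rad21 lines reached 73.2% and 72.2% in the window at 85200001.

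Rad21 covered more of the region in CH12F3 cells than in i3CBEs cells, in every library. To set lists of unequal length side by side, the 20000 strongest peaks of each list (by -log10 p) were used. In stimulated CH12F3 cells they covered 5.46%, 5.23%, 5.27% and 4.86% of the region in replicates 1 to 4. In i3CBEs cells they covered 0.478%, 0.675% and 0.916% in replicates 1 to 3. The means were 5.20% ± 0.250 (SD, n = 4) and 0.690% ± 0.219 (SD, n = 3), and the groups did not overlap. Unstimulated CH12F3 cells had 3.75%, 6.16% and 4.45%, a range that enclosed the stimulated values. This contrast chose the region, and the values carry no test.

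In splenic B cells Rad21 covered 2.34%, 2.69% and 1.97% of the region without stimulation and 0.428%, 1.56% and 0.933% with it. Both splenic groups therefore lay below every CH12F3 library, and the stimulated splenic range overlapped that of i3CBEs cells. From the highest, the order of the group means was stimulated and unstimulated CH12F3, which overlapped, then unstimulated spleen, then stimulated spleen and i3CBEs, which overlapped. With all deposited peaks CH12F3 libraries lay between 11.9% and 12.9%, splenic libraries between 3.80% and 11.1%, and i3CBEs libraries between 2.95% and 3.37%, with no overlap between the 3 kinds of cells.

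NIPBL, the cohesin loader, covered the region in every library. By the strongest peaks its values were 4.25% and 1.10% in unstimulated CH12F3 cells and 3.09% and 1.53% in stimulated ones. In spleen they were 1.5%, 0.950% and 0.805% without stimulation and 0.867%, 1.26% and 1.55% with it. In CH12F3 cells 1 of these 4 values lay within the range of the Rad21 libraries and 3 lay below it. The highest NIPBL values came from replicate 1 of each CH12F3 group. The peak names of those 2 lists name no control sample, as is true of all splenic NIPBL lists, whereas replicate 2 of each CH12F3 group names one. Every Rad21 list names a control, so most NIPBL lists also differ from the Rad21 lists in this. The part of the control in this spread, or in the difference between NIPBL and Rad21, was not tested.

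**Figure D2:**
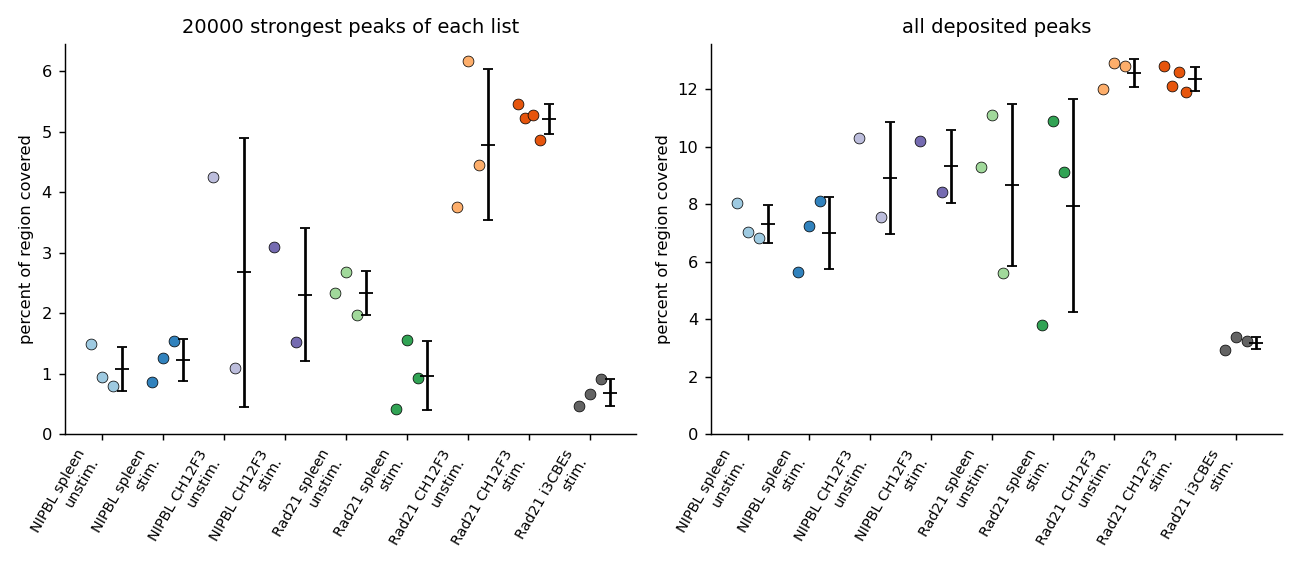
Percent of the region covered in each library (points, y axis) by group (x axis), with the group mean ± SD beside them, for the 20000 strongest peaks (left) and for all deposited peaks (right). With the strongest peaks the 7 CH12F3 Rad21 libraries lay between 3.75% and 6.16%, and the 3 i3CBEs libraries below 1%.

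The coverage of the rest of chromosome 1 by the same peaks gives the region's own background. By the strongest peaks the ratio of the region to the rest was 16.9 ± 2.93 (SD, n = 4) for Rad21 in stimulated CH12F3 cells and 3.47 ± 0.928 (SD, n = 3) in i3CBEs cells. For Rad21 in spleen it was 4.72 ± 0.957 without and 2.24 ± 0.580 with stimulation (SD, n = 3 each). For NIPBL it was 8.24 ± 1.35 and 12.2 ± 3.84 in unstimulated and stimulated CH12F3 cells (SD, n = 2 each), and 2.80 ± 0.514 and 3.15 ± 0.719 in spleen (SD, n = 3 each). In every group the region was thus more densely covered than the rest of its chromosome.

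With all deposited peaks that ratio no longer separated i3CBEs from stimulated CH12F3 cells. Over the whole region it was 6.43, 10.5 and 10.4 in the i3CBEs lists and 14.3, 12.5, 7.47 and 20.6 in the stimulated CH12F3 lists. The occupied windows hold all peaks of the region, so taking them alone raises every ratio by the same factor. Over these windows it was 23.9, 38.9 and 38.5 in the i3CBEs lists and 53.1, 46.4, 27.8 and 76.4 in the stimulated CH12F3 lists. The i3CBEs lists were short everywhere: their peaks covered between 10.2 and 14.2 Mb of the genome, against 20.5 to 49.4 Mb in stimulated CH12F3 cells. The part of list length in the difference between these cells was not tested.

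With all deposited peaks the i3CBEs lists held fewer Rad21 peaks in the region than the stimulated CH12F3 lists, and narrower ones. There were 260, 249 and 243 peaks in i3CBEs cells, and 268, 301, 310 and 322 in stimulated CH12F3 cells. The whole lists held 97738, 53237 and 42659 peaks in i3CBEs and 95464, 178792, 271662 and 106966 in stimulated CH12F3 cells. Among the strongest peaks of each list the counts in the region overlapped. They were 18, 25 and 38 in i3CBEs and 20, 31, 39 and 32 in stimulated CH12F3 cells. The median width of all deposited peaks in the region was 184, 238 and 215 bp in i3CBEs cells. It was 412, 443, 408 and 382 bp in stimulated CH12F3 cells. In the whole lists the median widths overlapped, at 102 to 216 bp in i3CBEs and 112 to 225 bp in stimulated CH12F3 cells. The median fold enrichment over the caller's background, the authors' own value for each peak, was 4.07 ± 0.0249 (SD, n = 3) in i3CBEs and 4.17 ± 0.295 (SD, n = 4) in stimulated CH12F3 cells. Between these cells the median widths did not overlap and the median folds did.

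The widest peak of the region measured 26277, 10822, 10012 and 24261 bp in stimulated CH12F3 cells and 14719, 25640 and 16185 bp in unstimulated ones. In i3CBEs cells it measured 1835, 1760 and 2601 bp, and it did not rank among the 20000 strongest in any of the 3 lists. In spleen the widest Rad21 peak measured 11087, 21208 and 7801 bp without stimulation and 4639, 9601 and 7272 bp with it. The i3CBEs lists did hold wide peaks elsewhere, with 12, 12 and 9 of 5 kb or more in the genome, of which 0 lay in the region. In the 4 stimulated CH12F3 lists 14 of 59, 13 of 30, 14 of 57 and 10 of 27 peaks of 5 kb or more lay in it.

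Over all lists 25 peaks of the region were 10 kb wide or more, and 22 of them were Rad21 peaks of CH12F3 cells. The other 3 were Rad21 peaks of unstimulated splenic cells, all at the right end. They recurred at a few places. The widest, chr1:85265580-85291856, came from stimulated CH12F3 replicate 1 with a fold of 13.0, and a peak of 24833 bp began at 85269632 in unstimulated replicate 2. Beside it, chr1:85239332-85263513 in stimulated replicate 1, chr1:85239304-85263564 in stimulated replicate 4 and chr1:85237863-85263502 in unstimulated replicate 2 covered nearly the same bases. At the right end chr1:87486736-87498660 in stimulated CH12F3 replicate 1 lay on chr1:87487568-87498654 of unstimulated spleen replicate 1. In the bin at 85270001 the strongest peaks covered 100%, 100%, 80.8% and 100% in stimulated CH12F3 replicates 1 to 4 and 0% in each i3CBEs replicate, where all deposited peaks covered 6.08%, 7.23% and 13.7%.

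**Figure D3:**
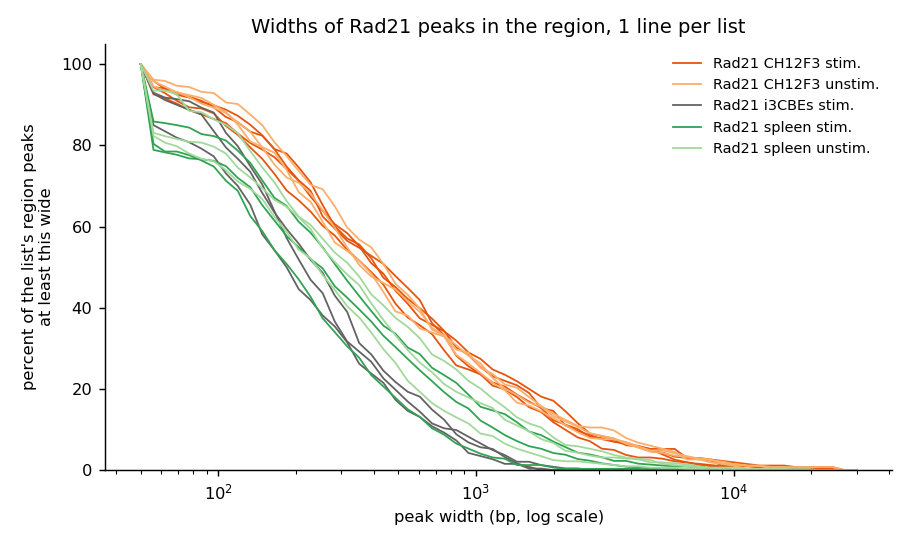
Share of a list's Rad21 peaks in the region that are at least as wide as the value on the x axis (bp, log scale), 1 line per list, coloured by group. The i3CBEs lines fall first together with 1 splenic line and end at 2601 bp or less, and each CH12F3 line runs to 10012 bp or more.

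The Rad21 peaks of i3CBEs cells lay inside those of CH12F3 cells. Between 98.7% and 99.8% of the bases they covered in the region were also covered in at least 1 stimulated CH12F3 list, while 40.5% to 41.8% of the CH12F3 bases were covered in at least 1 i3CBEs list. The CH12F3 lists together covered 57.0% of the occupied windows. Stretches covered in all 3 i3CBEs lists came to 36.2 kb, of which 34.9 kb, or 96.4%, were also covered in all 7 CH12F3 Rad21 lists. Those 7 lists shared 222 kb in 301 stretches, the longest being chr1:85271681-85279745 with 8065 bp. The 6 splenic Rad21 lists shared 55.4 kb, of which 96.2% lay in the stretches common to CH12F3.

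Few bases were covered in every library. All 26 lists shared 37 stretches with 7.49 kb in all, and the longest was chr1:87496441-87497943 with 1503 bp at the right end. The 10 NIPBL lists shared 40 kb. Of the bases that NIPBL covered in a stimulated CH12F3 list, 85.3% to 86.1% were covered by Rad21 in at least 1 list of the same cells. In spleen the corresponding range was 76.0% to 77.6%. The Rad21 unions used for this covered 57.0% and 49.5% of the occupied windows.

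Over the 61 bins of 10 kb with any coverage, the profiles of the group means along the region were alike, with no test. Pearson's r was 0.99 between unstimulated and stimulated CH12F3 Rad21, 0.97 between the splenic Rad21 groups and 0.89 between NIPBL and Rad21 in stimulated CH12F3 cells. With i3CBEs Rad21 it lay between 0.55 and 0.70 for all other groups. Neighbouring bins are not independent and share any copies of a sequence.

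The i3CBEs lists also differed in which sequences they name. They held 283, 282 and 242 peaks on chr1_random, the part of mm9 that holds pieces assigned to chromosome 1 without a place. The other 23 lists held 0 there. These peaks covered 79.8, 88.1 and 95.1 kb, against 76.8, 87.6 and 84.1 kb in the region itself. Of the bases a list covered on the main chromosomes, the region took 0.731% ± 0.164 in i3CBEs (SD, n = 3) and 1.08% ± 0.352 in stimulated CH12F3 cells (SD, n = 4). With chr1_random added, and taken over the bases covered on all sequences, the shares were 1.48% ± 0.340 and 1.08% ± 0.351. The order of the means thus turned, and the groups overlapped in both cases. Outside the main chromosomes the other 23 lists, of up to 1332862 peaks, held peaks on the mitochondrial sequence alone. The i3CBEs lists, of 97738 peaks or fewer, also held 213, 213 and 182 peaks on chr8_random and others on further unplaced sequences. Whether all lists were made against the same set of sequences is not stated in the sources used here. The part of that set, or of chr1_random, in the difference between the cells was not tested. The peak names of every Rad21 list, in CH12F3, i3CBEs and splenic cells, name a control sample. Read counts and input lists were not analysed here, so copy number and occupancy cannot be told apart.

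**Figure D4:**
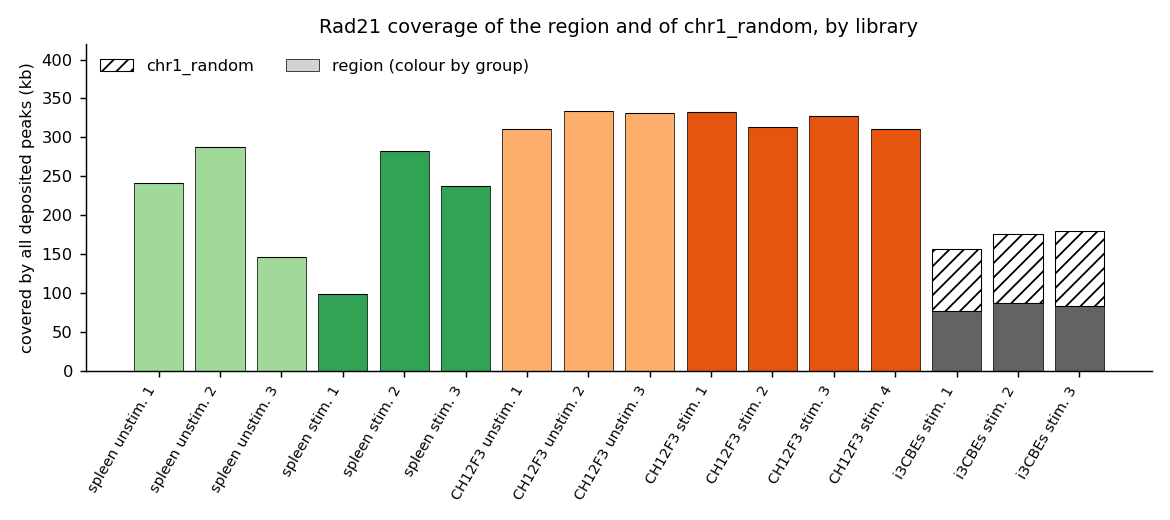
Bases covered by all deposited Rad21 peaks (y axis, kb) in the region (filled bars) and on chr1_random (hatched, stacked on top) in each Rad21 library (x axis). The i3CBEs bars reach 157, 176 and 179 kb in all, with 79.8, 88.1 and 95.1 kb on chr1_random, and the other libraries have 0 there.

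Since the contrast between i3CBEs and stimulated CH12F3 cells chose the region, its values by bin are a description and nothing is read from the counts. The strongest peaks covered 91.7%, 91.6%, 81.4% and 83.0% of the 10 kb bin at 87490001 in stimulated CH12F3 replicates 1 to 4, and 0%, 0% and 22.5% in the i3CBEs replicates. In 22 of the 33 bins with coverage in at least 2 libraries the groups did not overlap, against 23.9% of all such bins of the genome (23.1% lower in i3CBEs). In the same limma fit as the comparison by stimulation below, 5 of the 33 passed an adjusted p of 0.05, all lower in i3CBEs, beside 0.411% of all bins (0.231% lower). Neither count can serve as a test, since the region was chosen by this difference. Bins covered in CH12F3 lists alone could also enter the counts.

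In splenic B cells the strongest Rad21 peaks covered less of the region with stimulation than without it in every library, a difference that could not reach the threshold with 3 libraries a group. The means were 2.33% ± 0.360 without and 0.975% ± 0.569 with stimulation, a difference of -1.36 percentage points (SD, n = 3 each; two-sided exact permutation p = 0.10, the smallest that 3 against 3 allow, and 1.0 after adjustment over 12 tests). The groups did not overlap. Among lists of over 1000000 peaks the values were 2.69% without and 0.933% and 1.56% with stimulation, and among shorter lists 1.97% and 2.34% without and 0.428% with it. With all deposited peaks the groups overlapped, at 8.65% ± 2.79 and 7.94% ± 3.70 (SD, n = 3 each).

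Of the 25 testable bins, 2 were called lower after stimulation of spleen and 0 higher, a share of 8% beside 2.82% of all bins tested in the genome (2.69% lower). In the bin at 85100001 Rad21 covered 92.3%, 95.4% and 78.0% without stimulation and 11.4%, 32.7% and 53.6% with it, a difference of -56.0 points (SE 12.4, limma adjusted p = 0.0466). By all deposited peaks it held 92.3%, 95.4% and 84.5% without and 58.4%, 90.0% and 78.2% with stimulation, and the groups overlapped. The bin at 87440001 was covered at 17.9%, 20.6% and 16.2% without and 0% in each library with stimulation (-18.2 points, SE 2.70, limma adjusted p = 0.0302). It entered the fit through the unstimulated libraries alone, which limits what its call can show. By all deposited peaks the bin at 87440001 held 5.56%, 50.6% and 30.6% after stimulation, which overlapped the 32.8%, 37.7% and 21.9% before it. The largest difference in means was in the bin at 87510001, with 68.2%, 100% and 26.8% without and 11.3%, 0% and 0% with stimulation, and was not called (limma adjusted p = 0.0906). In 6 of the 25 bins the groups did not overlap, all lower after stimulation, against 16.8% of all bins (9.76% lower).

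The number of calls changed with the libraries used. It was 0 without any 1 of the 3 stimulated libraries, 1 without unstimulated replicate 1 or 2, and 6 without unstimulated replicate 3. It was 0 with 10000 or 40000 peaks per list. The widest Rad21 peak of the region was 13365.3 ± 6987.8 bp without and 7170.7 ± 2482.6 bp with stimulation (SD, n = 3 each; exact permutation p = 0.20, adjusted 1.0), and the groups overlapped.

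Stimulation of CH12F3 cells was not accompanied by a detectable change of Rad21 in the region. The coverage differed by 0.416 points (exact permutation p = 0.514, smallest possible 0.0571, adjusted 1.0) and the widest peak by -1005.0 bp (exact permutation p = 0.857, adjusted 1.0), both with overlap. These CH12F3 libraries are also those of the contrast that chose the region. By limma 0 of 33 bins were called, beside 0.0262% of all bins, with 2 at an unadjusted p under 0.05. The groups did not overlap in 1 of the 33, against 3.01% of all. Without unstimulated replicate 2, the list of the highest coverage, 3 bins were called higher.

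For NIPBL no effect of stimulation on the coverage of the region was detected in either kind of cell. In spleen it was 1.09% ± 0.369 without and 1.22% ± 0.342 with stimulation (SD, n = 3 each), a difference below the spread (exact permutation p = 0.700, adjusted 1.0). In CH12F3 cells it was 2.68% ± 2.22 without and 2.31% ± 1.11 with stimulation (SD, n = 2 each; exact permutation p = 1.0, where the smallest possible was 0.333). The widest NIPBL peaks overlapped as well, with exact permutation p = 0.500 in spleen and 1.0 in CH12F3 cells, both 1.0 after adjustment. By limma 0 of 25 bins were called in spleen, beside 2.98% of all bins, with 4 at an unadjusted p under 0.05, of which 2 were higher and 2 lower. In CH12F3 cells 0 of 34 were called, as were 0% of all bins, with 1 at an unadjusted p under 0.05.

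2 splenic bins came near the threshold in opposite directions. In the bin at 87500001 NIPBL covered 50.5%, 68.4% and 39.4% without stimulation and 14.7%, 18.5% and 0.510% with it (limma adjusted p = 0.0770). The bin at 85270001 was covered at 12.9%, 0% and 22.0% without and 35.2%, 40.2% and 43.5% with it (limma adjusted p = 0.0809). These were among 5 of the 25 bins in which the groups did not overlap, against 15.1% of all bins. In CH12F3 cells the groups did not overlap in 6 of 34 bins, against 29.1% of all bins. When 1 splenic library was left out, 1 bin was called without unstimulated replicate 1 or stimulated replicate 1 or 2, and 2 without unstimulated replicate 3.

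NIPBL was tested between spleen and CH12F3 cells, a contrast that the choice of the region did not use directly. It may not be independent of that choice, which rested on wide Rad21 peaks in CH12F3 cells. There the NIPBL and Rad21 profiles along the region correlated at r = 0.88 without and 0.89 with stimulation. The coverage differed by -1.59 points in spleen against CH12F3 cells without stimulation and by -1.09 points with it, with overlap between the groups each time (exact permutation p = 0.400 in both, smallest possible 0.20, adjusted 1.0). The widest peaks overlapped too (exact permutation p = 0.800 and 0.600, adjusted 1.0). By the strongest peaks the ratio of the region to the rest of chromosome 1 did not overlap in either state. It was 2.80 ± 0.514 against 8.24 ± 1.35 and 3.15 ± 0.719 against 12.2 ± 3.84 (SD, n = 3 and 2; exact permutation p = 0.20, the smallest possible, adjusted 0.600 over 30 further tests). The splenic and CH12F3 stimulations differed in agents and time, and 1 CH12F3 list in each state had a named control that no splenic list had.

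Without stimulation 2 of 41 bins were called lower in spleen and 0 higher, a share of 4.9% beside 2.13% of all bins (0.949% lower). In the bin at 85080001 NIPBL covered 8.67%, 0% and 0% in spleen and 40.9% and 27.0% in CH12F3 cells (-31.0 points, SE 5.93, limma adjusted p = 0.0449). All deposited peaks covered 61.2%, 57.4% and 46.5% of it in spleen and 71.9% and 54.7% in CH12F3 cells, with overlap. The bin at 87510001 was covered at 0% in the 3 splenic lists and 11.1% and 7.53% in CH12F3 cells (limma adjusted p = 0.0252). Among the strongest peaks only the CH12F3 lists of this comparison covered that bin, which limits what its call can show. All deposited peaks covered 59.9%, 45.2% and 45.2% of it in spleen and 69.4% and 45.1% in CH12F3 cells. The groups did not overlap in 11 of 41 bins, all lower in spleen, against 11.9% of all bins (4.89% lower). Some of these, such as the bins at 85250001 and 85070001, were likewise at 0% in every splenic list. The count of calls was 0 without splenic replicate 1, 1 without splenic replicate 2 or 3 or CH12F3 replicate 1, and 12 without CH12F3 replicate 2, the list with a named control.

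With stimulation 1 of 41 bins was called lower in spleen, a share of 2.4% beside 3.78% of all bins (1.40% lower). In that bin, at 85330001, NIPBL covered 6.38%, 6.71% and 7.18% in spleen and 35.7% and 26.2% in CH12F3 cells (-24.2 points, SE 5.07, limma adjusted p = 0.0411). All deposited peaks covered 22.1%, 37.7% and 39.5% of it in spleen and 40.5% and 42.5% in CH12F3 cells, without overlap. The groups did not overlap in 11 of 41 bins, all lower in spleen, against 22.0% of all bins (4.61% lower). Among them the bin at 85190001 was at 0% in every splenic list. The count was 0 without splenic replicate 1 or 2 or CH12F3 replicate 1, and 0 with all deposited peaks in both states.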

How the data were processed

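Peak lists of 26 NIPBL and Rad21 ChIP-seq libraries were used, 1 list per library; 5 input samples carry no list here. The submitters' processing notes name Bowtie2, MACS2 and mm9; their versions, and the treatment of reads with several matches, are not stated in the sources used here. For each peak the authors deposited a fold enrichment (a ratio), the -log10 p and -log10 q values and a score. The peak names of every Rad21 list and of replicate 2 of each CH12F3 NIPBL group name a control, and those of the other lists name none.

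The region and the lists of features were chosen with earlier results of these data known. Peaks on the main chromosomes were ranked by -log10 p, and the 20000 strongest of each list were laid on bins of 10 kb. Bins covered in at least 2 libraries of a fit were compared with limma 3.58.1 (with a mean-variance trend) in R 4.3.3, with Benjamini-Hochberg adjustment over all bins of the genome and a threshold of 0.05; the fit was tested on simulated data. Under this filter a bin could enter a fit through the libraries of its higher group alone. The widest peak was taken from all deposited peaks. Coverage of the region and its widest peak were compared with two-sided exact permutation tests (scipy 1.17.1), adjusted over 12 tests. Regions named are the called bins, the 10 bins of largest difference per contrast, windows of 100 kb, the widest peak of each list, peaks of 10 kb or more and shared stretches. Alternatives were 10000 or 40000 peaks, all peaks, equal covered length, a -log10 q of at least 5, bins of 50 kb, no filter on bins, joining peaks within 1000 bp, a replicate block, and leaving out each library. No list holds read counts, so depth is unknown and the number of libraries limits precision.

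In CH12F3 Rad21, deviations from the group means of same-numbered stimulated and unstimulated libraries correlated at r = 0.423, 0.651 and 0.376 over 21545 bins, and other numbers correlated too (0.438 for stimulated 1 with unstimulated 3). Stimulated 4 correlated with unstimulated 2 at 0.607, while stimulated 1 with unstimulated 2 stood at -0.62. The tests given are unpaired, and the replicate number enters only as a block among the alternatives, where it changed no call of this comparison. That block does not join libraries of different numbers, so it leaves such likeness out.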

Additional observations from a re-analysis of the deposited data

Results flagged for a closer look

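Peaks on chr1_random lay outside the main measurement, which used the region and the main chromosomes, and only the i3CBEs Rad21 lists held any. There were 283 in replicate 1, 282 in replicate 2 and 242 in replicate 3, and 0 in each of the other 23 lists. The same 3 lists held peaks on further unplaced sequences, such as 213 on chr8_random in replicate 1. No input list was analysed here, so the level without antibody was not measured.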

How the results depend on the processing

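Of 85 alternative values for the coverage of the region, 64 were scored as unchanged, 16 had the opposite sign and 5 moved by more than the spread. Of 57 for the widest peak these numbers were 47, 9 and 1. The side of the threshold could not change, because the exact permutation p could not fall below 0.0571 at these group sizes, which is above the threshold. The counts of unchanged values thus say nothing about passing it. The i3CBEs values carried no test. The reversals concern differences that were not called, and the cause was not tested. Unknown depth limits what peak counts can show.

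Coverage differences are in percentage points. For NIPBL, stimulated minus unstimulated spleen, the coverage was -0.0243 with 10000 peaks, -0.307 with all peaks and -1.41 with a minimum -log10 q of 5. For NIPBL in CH12F3 cells it was 0.403 with all peaks, 0.739 with equal covered length, 0.364 with a minimum -log10 q of 5 and 3.91 as a ratio to the rest of chromosome 1 (an alternative chosen after seeing the data). For Rad21 in CH12F3 cells it was -0.421 with 10000, -0.00339 with 40000, -0.173 with all peaks and -0.135 with equal covered length. For i3CBEs minus CH12F3 it was -1.75 with 10000, -7.63 with 40000, -9.17 with all peaks, -1.75 with equal length and -6.67 with a minimum -log10 q of 5. The widest NIPBL peak differed by 124 bp in CH12F3 cells among the 20000 strongest, and with peaks joined within 1000 bp by 1196.5 bp between unstimulated spleen and CH12F3 cells; joined Rad21 peaks differed by -87977.8 bp between i3CBEs and CH12F3.

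Called bins in NIPBL of spleen after stimulation were 1 with no filter on bins, 3 with 10000 peaks and 2 with equal length. Between unstimulated spleen and CH12F3 cells they were 1 with no filter or with 40000 peaks, 0 with all peaks, the -log10 q minimum of 5 or bins of 50 kb, and 6 with equal length. Between stimulated spleen and CH12F3 cells they were 3 with 10000 peaks, 10 with equal length, and 0 with no filter, 40000 peaks, all peaks, the -log10 q minimum of 5 or bins of 50 kb. For Rad21 of spleen they were 0 with no filter, 10000 peaks, 40000 peaks, equal length or the -log10 q minimum of 5, and 1 with bins of 50 kb. For i3CBEs, where they only describe the contrast that chose the region, they were 2 with 10000, 22 with 40000, 35 with all peaks, 16 with the -log10 q minimum of 5 and 0 with bins of 50 kb.

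With the replicate block the calls in Rad21 of spleen went from 2 to 4 and those in NIPBL of spleen stayed at 0. Same-numbered splenic libraries correlated at r = -0.118, 0.027 and 0.007 for Rad21 and -0.099, -0.018 and -0.038 for NIPBL, so they share only a number. The block, added later for i3CBEs (r = 0.107, 0.005 and -0.078), gave 2 calls. In Rad21 of CH12F3 cells the block changed no call, with 0 bins called. In NIPBL of CH12F3 cells, where the titles of a pair of lists carry no number, a block of unnumbered against numbered lists, which also separates lists without and with a named control, was added after seeing the data and gave 0 calls (r = 0.313).

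With 1 library left out, coverage differences ran from -0.0253 to 0.346 (NIPBL, spleen), -1.94 to 1.21 (NIPBL, CH12F3), -3.16 to -0.0185 and -1.87 to -0.306 (NIPBL, spleen minus CH12F3 without and with stimulation), -1.65 to -1.08 (Rad21, spleen), -0.103 to 1.10 (Rad21, CH12F3) and -4.63 to -4.41 (i3CBEs). The widest peak ran in the same order from -1942.8 to -172, -3090.5 to 2352.5, -3605.7 to 1837.3, -3592.3 to 331, -8976.8 to -2273.3, -3816.3 to 2391.0 and -18388.0 to -12966.3 bp. Called bins ran from 0 to 2, 0 to 0, 0 to 12, 0 to 1, 0 to 6, 0 to 3 and 2 to 8. A group left with 1 library was assumed to vary like the others of its fit.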
